A study of Homo sapiens with 4 samples.

Results

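The 10 genes described here, which WNT signalling switches on in many tissues, were followed in NTERA2 cells: AXIN2, NKD1, TCF7, LEF1, SP5, RNF43, ZNRF3, LGR5, DKK1 and NOTUM. They were taken by symbol from the per-gene count tables, all 10 were found among the 26364 genes listed, and all 10 passed the filter on low counts that left 16040 tested genes. NTERA2 is a human embryonal carcinoma line, a malignant counterpart of pluripotent cells. The labels name 2 groups of 2 libraries, all from this line grown in serum-containing medium. Replicates 1 and 3 carry the name BEND3 LacZ, and the other group, BEND3 sh60, has replicates 1 and 2. The labels do not say what these names stand for. From the title of the series sh60 was taken for a hairpin that targets BEND3, a chromatin-bound repressor, and LacZ for its control. How the hairpin was delivered and when cells were collected is not given in the sources used here, nor is whether replicates came from separate cultures. Every p-value therefore measures only the spread between these libraries, which may be technical.

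In the canonical WNT pathway, a ligand bound by Frizzled and LRP receptors stops a cytoplasmic destruction complex from degrading beta-catenin, which then enters the nucleus and activates genes through DNA-binding factors of the TCF/LEF family. Among the genes activated are inhibitors of the pathway itself, which act outside the cell, at the receptor or on the destruction complex and so form negative feedback loops. In the early embryo and in pluripotent cells this pathway takes part in forming the primitive streak and mesoderm.

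Libraries held 30338285 to 44788461 counts, so that 1 count was worth 0.0221 to 0.0333 CPM (a library's counts put on a common scale after TMM normalisation). The targeted gene, BEND3, measured 68.8 and 79.3 CPM in LacZ and 55.7 and 52.0 CPM in sh60, or 0.727 of the LacZ level (edgeR adjusted p = 0.00168), and this call was lost without LacZ replicate 3 (adjusted p = 0.153). On the first principal component the sh60 libraries lay at 26.1 and 25.8, LacZ replicate 1 at -20.8 and LacZ replicate 3 at -31.0. The labels also call the line a lung carcinoma. Of 10 lung epithelium markers 9 were under 1 CPM in every library, with SFTPB and SCGB1A1 at 0 counts, while all 14 markers of embryonal carcinoma and pluripotency were expressed, with a sum of 6945 and 7129 CPM in LacZ and 6607 and 6374 CPM in sh60. Of these 14, 6 fell, 1 rose and 7 did not pass, which makes 50% against 28.8% of all tested genes. DNMT3B, a DNA methyltransferase, fell by 0.72 on the log2 scale, GDF3 by 0.54, TDGF1 by 0.49, LIN28B by 0.45, SALL4 by 0.31 and NANOG by 0.25, while SOX2 rose by 0.31. POU5F1 did not pass (log2 fold change 0.027). Without LacZ replicate 1, 4 of these markers fell and 0 rose, without LacZ replicate 3, 2 fell and 0 rose, and without sh60 replicate 2, 6 fell and 2 rose. Of 9 tested fibroblast markers 4 rose and 1 fell. The 10 listed summed to 455 to 558 CPM in LacZ and 943 to 1107 CPM in sh60, and none was at 0. COL1A1 measured 141 and 84.9 CPM in LacZ and 554 and 684 CPM in sh60, and THY1, the one that fell, 233 and 230 CPM in LacZ and 175 and 189 CPM in sh60. Of the fibroblast markers 0 fell without LacZ replicate 1 and 2 fell both without sh60 replicate 2 and without the filter on low counts. Of 10 blood cell markers 9 were under 1 CPM throughout, with PTPRC and HBB at 0, and 1 of 3 tested, LYZ, rose at under 1 CPM. The part of these markers in the WNT results that follow was not tested, and in bulk RNA fewer cells of a type and less RNA per cell cannot be told apart.

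Most of the 10 genes had less mRNA in the sh60 libraries. By edgeR's quasi-likelihood test 7 fell, 0 rose and 3 did not pass at an adjusted p of 0.05, where 28.8% of all tested genes passed in either direction and 13.0% passed as lower. The 7 were NOTUM, TCF7, DKK1, AXIN2, NKD1, LEF1 and ZNRF3, and the 3 were SP5, LGR5 and RNF43. Of the 10, 6 fell with a log2 fold change of -0.5 or below, which 6.20% of all tested genes did, and 1 of these, NOTUM, had -1 or below, as 2.25% did. The median log2 fold change was -0.69 over the 10 genes and -0.0042 over all tested genes. Both sh60 libraries lay below both LacZ libraries for 8 of the 10, an arrangement that 32.3% of all tested genes had, and none had the opposite arrangement, which 32.1% of all tested genes had. Across all genes 4624 passed, 2084 lower and 2540 higher in sh60. Without LacZ replicate 1 that number was 2968 and without LacZ replicate 3 it was 2287, while 7 and 6 of the 10 genes passed in the same fits, all of them lower.

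TCF/LEF factors recognise DNA that holds the letters CTTTGA or CTTTGT. RefSeq promoter sequences on GRCh38.p14 were at hand for 5 of the 10 genes (SP5, DKK1, LEF1, TCF7 and RNF43, with 7 start sites in all), and the 250 bases before each start were searched for both motifs on both strands, where they read TCAAAG and ACAAAG. One or the other stood in 22.8% of 35116 such windows over all genes, CTTTGA in 11.2% and CTTTGT in 13.7%, and 0.584% of windows held 3 or more matches. The windows of SP5 and DKK1 are printed because both held 3 or more matches, while DKK1 fell and SP5 did not pass the test. SP5 (plus strand, chr2:170715087-170715336) held 4 matches and DKK1 (plus strand, chr10:52314031-52314280) held 3. Each sequence is written 5′ to 3′ and ends on the base before the start of transcription, with matches in capitals.
SP5: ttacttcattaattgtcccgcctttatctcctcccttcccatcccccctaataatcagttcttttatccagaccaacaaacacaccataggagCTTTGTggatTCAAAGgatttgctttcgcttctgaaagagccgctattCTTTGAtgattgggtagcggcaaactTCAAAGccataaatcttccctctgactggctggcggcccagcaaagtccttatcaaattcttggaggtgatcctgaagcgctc
DKK1: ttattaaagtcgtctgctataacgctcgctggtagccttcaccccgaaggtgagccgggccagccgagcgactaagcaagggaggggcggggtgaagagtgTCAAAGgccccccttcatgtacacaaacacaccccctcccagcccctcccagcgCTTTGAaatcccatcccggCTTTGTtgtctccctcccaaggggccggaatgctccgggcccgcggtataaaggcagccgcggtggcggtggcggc
In SP5 the matches began 157, 147, 109 and 83 bases before the start, and in DKK1 149, 95 and 76 bases before it. The window of LEF1 and the first of the 2 windows of TCF7 held 0 matches, and the second window of TCF7 held 2. Each of the 2 windows of RNF43 held 1. The letters in these windows are a description of sequence and no measure of binding. No window was at hand for AXIN2, NKD1, NOTUM, ZNRF3 or LGR5, and whether matches go with a change in level was not tested.

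**Figure D1:**
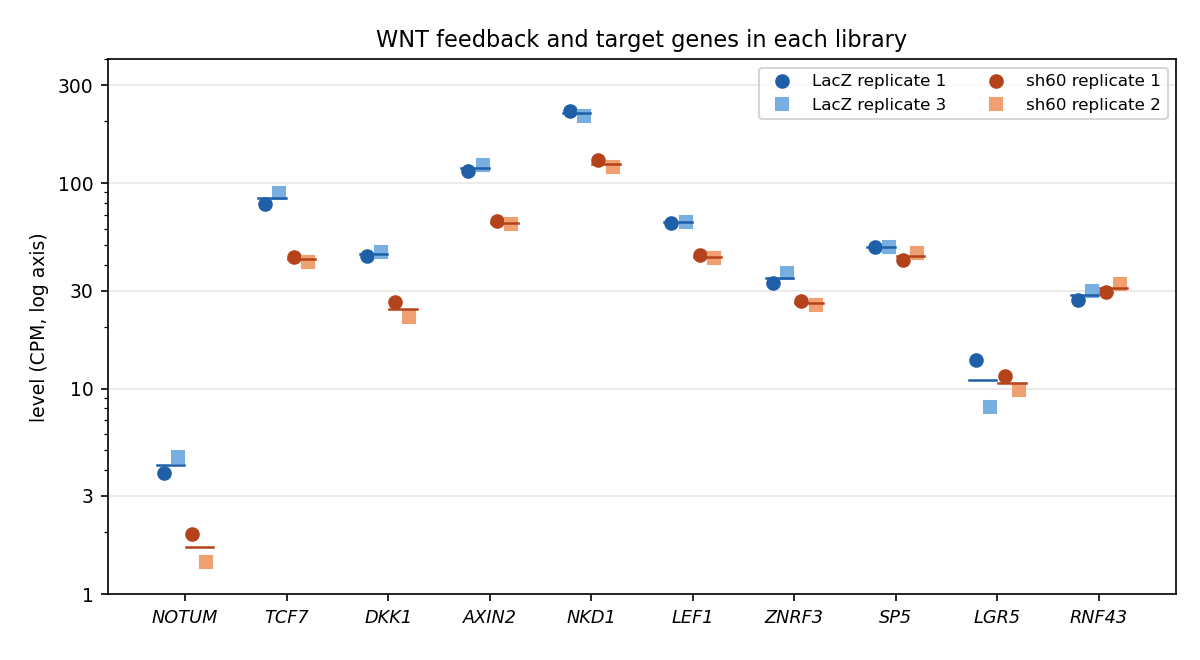
Level of each gene in each library in CPM on a log axis, with circles and squares for the libraries and short lines for the group means, ordered from the lowest to the highest log2 fold change. The orange sh60 points lie below the blue LacZ points for all genes from NOTUM to SP5, while for LGR5 the LacZ points lie on both sides of the sh60 points and for RNF43 the groups overlap.

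AXIN2 and NKD1 encode intracellular inhibitors. AXIN2 is a scaffold of the destruction complex and is widely used as a readout of WNT activity, and NKD1 binds Dishevelled, the protein that relays the signal from the receptor. AXIN2 (chromosome 17, 63524683 to 63557740, minus strand, hg19) stood at 114 CPM in LacZ replicate 1 and 122 CPM in LacZ replicate 3, against 65.2 and 63.2 CPM in the first and second sh60 replicates. All values below keep this order of libraries. The 2 groups were far apart compared with the gap inside either of them. Its level was 1.84-fold lower in sh60 (log2 fold change -0.88, SE 0.088, 95% interval -1.06 to -0.69, edgeR adjusted p = 9.26e-07). NKD1 (chromosome 16, 50582241 to 50674771, plus strand) measured 225 and 213 CPM in LacZ and 129 and 119.8 CPM in sh60, the highest count level of the 10 genes. It was 1.76-fold lower (log2 fold change -0.82 with SE 0.084, edgeR adjusted p = 1.07e-06), and again the groups did not overlap.

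The paralogs of these genes were looked at after their values were seen. AXIN1, the constitutive scaffold of the same complex, measured 74.5 and 76.2 CPM in LacZ and 62.6 and 72.5 CPM in sh60, a difference that did not pass (log2 fold change -0.16, 95% interval -0.36 to 0.045, edgeR adjusted p = 0.246). Without sh60 replicate 2 it passed as lower (log2 fold change -0.27, adjusted p = 0.00942). Per kilobase of exon, AXIN2 stood at 1.32 and 1.38 times the level of AXIN1 in the LacZ libraries and at 0.900 and 0.754 times in the sh60 libraries, so the order of the pair differed between the groups. NKD2, a second Dishevelled-binding inhibitor present at a lower level, fell from 7.88 and 6.95 CPM to 2.82 and 4.00 CPM (log2 fold change -1.11, SE 0.18, edgeR adjusted p = 1.40e-04).

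TCF7 and LEF1 encode DNA-binding partners of beta-catenin that are themselves WNT targets, and SP5 encodes a zinc finger factor induced by the pathway. TCF7 (chromosome 5, 133450402 to 133483920, plus strand) measured 79.5 and 89.6 CPM in LacZ and 43.5 and 41.5 CPM in sh60. Both sh60 libraries held about as much of it as each other, at a level 1.99-fold lower than in LacZ (log2 fold change -0.99, SE 0.097, 95% interval -1.19 to -0.79, edgeR adjusted p = 6.56e-07). LEF1 (chromosome 4, 108968701 to 109090112, minus strand) measured 64.0 and 64.8 CPM in LacZ and 44.5 and 43.0 CPM in sh60. It was 1.47-fold lower (log2 fold change -0.56, SE 0.093, 95% interval -0.76 to -0.36, edgeR adjusted p = 1.93e-04). The gap between the LacZ replicates of LEF1 was small, 0.018 on the log2 scale. SP5 (chromosome 2, 171571857 to 171574498, plus strand) measured 49.0 and 48.6 CPM in LacZ and 42.5 and 45.8 CPM in sh60. Both sh60 values were below both LacZ values, yet the difference did not pass (log2 fold change -0.14, 95% interval -0.35 to 0.058, edgeR adjusted p = 0.291).

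The 2 other TCF genes went the other way. TCF7L1, which acts mainly as a repressor in pluripotent cells, rose from 40.7 and 36.2 CPM to 54.4 and 61.2 CPM (log2 fold change 0.59, SE 0.10, edgeR adjusted p = 2.96e-04). TCF7L2, looked at after its values were seen, rose from 32.1 and 34.2 CPM to 45.5 and 43.3 CPM (log2 fold change 0.42, SE 0.099, edgeR adjusted p = 0.00341), a call that was lost without LacZ replicate 1 (log2 fold change 0.38, adjusted p = 0.119). Per kilobase of exon, TCF7 and LEF1 together made up 61.8% and 64.6% of the summed level of the 4 genes in LacZ replicates 1 and 3, and 42.1% and 39.6% in sh60 replicates 1 and 2. The summed level of the 4 was 55.9 and 57.4 CPM per kilobase in LacZ and 50.3 and 51.3 in sh60. The LacZ and sh60 libraries did not overlap in either quantity. These shares carry no test, and the exon lengths pool all annotated isoforms of each gene.

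DKK1 and NOTUM encode secreted inhibitors. DKK1 binds the LRP coreceptors, and NOTUM is an enzyme that removes the lipid that WNT ligands need for receptor binding. DKK1 (chromosome 10, 54074041 to 54077417, plus strand) measured 44.4 and 46.1 CPM in LacZ and 26.3 and 22.3 CPM in sh60. It was 1.86-fold lower (log2 fold change -0.90, SE 0.11, 95% interval -1.12 to -0.67, edgeR adjusted p = 6.02e-06). NOTUM (chromosome 17, 79910383 to 79919057, minus strand) had the lowest level of the 10 genes and the lowest log2 fold change. Its raw counts were 164 and 139 in LacZ against 67 and 65 in sh60, or 3.89 and 4.62 CPM against 1.97 and 1.44 CPM. The groups did not overlap, and the level was 2.52-fold lower (log2 fold change -1.33, SE 0.21, 95% interval -1.78 to -0.88, edgeR adjusted p = 1.30e-04). With so few counts its interval was wider than those of the other genes that fell.

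RNF43 and ZNRF3 encode related membrane ubiquitin ligases that remove Frizzled receptors from the cell surface, and LGR5 encodes a receptor for R-spondins, which block these ligases. ZNRF3 (chromosome 22, 29279755 to 29453476, plus strand) measured 32.7 and 36.7 CPM in LacZ and 26.6 and 25.6 CPM in sh60. It was 1.33-fold lower (log2 fold change -0.41, SE 0.10, 95% interval -0.63 to -0.19, edgeR adjusted p = 0.00673), the smallest of the 7 falls. Without LacZ replicate 3, the higher of the 2 LacZ libraries, this call was lost (log2 fold change -0.32, adjusted p = 0.212). RNF43 (chromosome 17, 56429861 to 56494943, minus strand) measured 27.1 and 29.8 CPM in LacZ and 29.4 and 32.2 CPM in sh60. The groups overlapped, and the gene did not pass (log2 fold change 0.12, 95% interval -0.10 to 0.34, edgeR adjusted p = 0.447). Per kilobase of exon RNF43 stood at 0.962 and 0.944 times the level of ZNRF3 in LacZ and at 1.28 and 1.46 times in sh60.

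LGR5 (chromosome 12, 71833550 to 71980088, plus strand) measured 13.8 and 8.12 CPM in LacZ and 11.5 and 9.83 CPM in sh60. The LacZ libraries differed from each other by 0.76 on the log2 scale, the widest gap between replicates among the 10 genes, and both sh60 libraries lay between them. The gene did not pass (log2 fold change -0.059, 95% interval -0.44 to 0.32, edgeR adjusted p = 0.846). Its direction rested on single libraries, at 0.39 without LacZ replicate 1 and -0.37 without LacZ replicate 3. The interval holds falls of up to 0.44 and rises of up to 0.32 on the log2 scale. The edgeR fit shares information on spread across genes, so this interval can be narrower than the libraries of LGR5 alone would give.

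**Figure D2:**
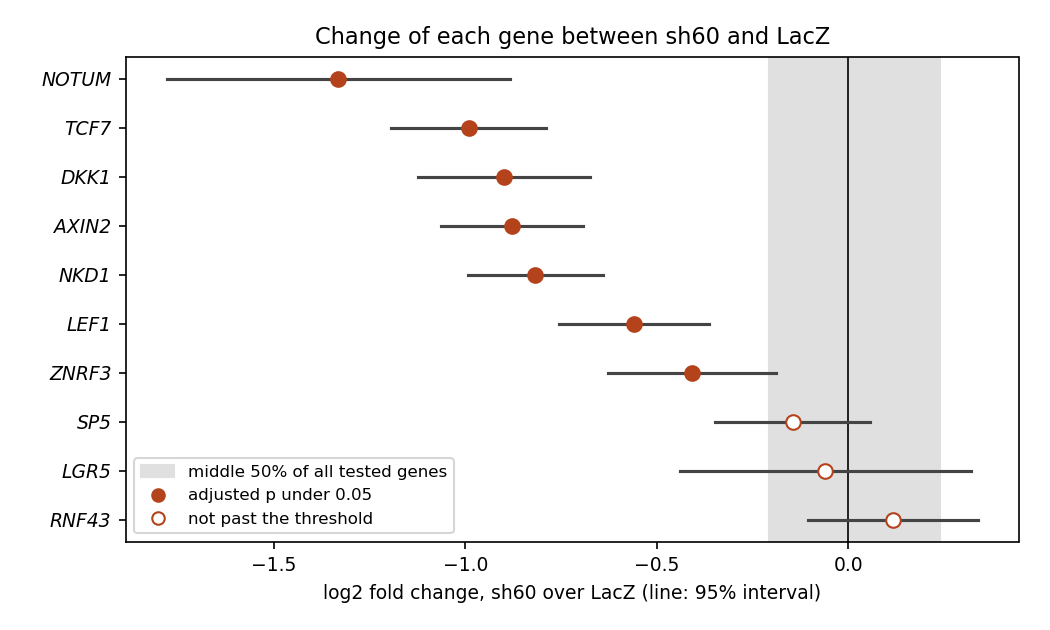
Log2 fold change of sh60 over LacZ for each gene by edgeR, with lines for the 95% interval, filled circles for genes past the threshold and open circles for the others. The grey band covers the middle 50% of all tested genes, -0.21 to 0.24, and the 7 filled circles lie to its left, from -1.33 for NOTUM to -0.41 for ZNRF3.

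Levels of different genes were compared per kilobase of exon. In LacZ the order of the means was AXIN2 at 27.9 CPM per kilobase, NKD1 at 25.2, DKK1 at 25.1, SP5 at 25.1, TCF7 at 20.2, LEF1 at 15.6, ZNRF3 at 5.12, RNF43 at 4.88, LGR5 at 2.24 and NOTUM at 1.92. NKD1, DKK1 and SP5 could not be told apart beyond the spread of their replicates, nor could ZNRF3 and RNF43, nor LGR5 and NOTUM. The genes thus fell into a group of high level and a group of low level, with a gap between LEF1 and ZNRF3. In sh60 SP5 came first at 22.7 CPM per kilobase, above AXIN2 at 15.2, NKD1 at 14.3 and DKK1 at 13.5. LEF1 at 10.6 and TCF7 at 10.2 followed, then RNF43 at 5.28, ZNRF3 at 3.86, LGR5 at 2.18 and NOTUM at 0.768. NKD1 and DKK1 overlapped there, and RNF43 and ZNRF3 did not.

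The spread inside the groups was also looked at gene by gene. LacZ replicate 1 was below LacZ replicate 3 for 7 of the 10 genes, against 50.7% of all tested genes, and sh60 replicate 1 was below sh60 replicate 2 for 2 of the 10, against 51.0%. For 8 of the 10 genes the gap between the LacZ replicates was smaller than the log2 fold change. The exceptions were LGR5 and RNF43, whose LacZ gaps were 0.76 and -0.14 (replicate 1 minus replicate 3, log2 scale). In the fits that leave out 1 library, the log2 fold change of AXIN2 ran from -0.92 to -0.83 and that of LEF1 from -0.58 to -0.53, while that of NOTUM ran from -1.56 to -1.10.

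**Figure D3:**
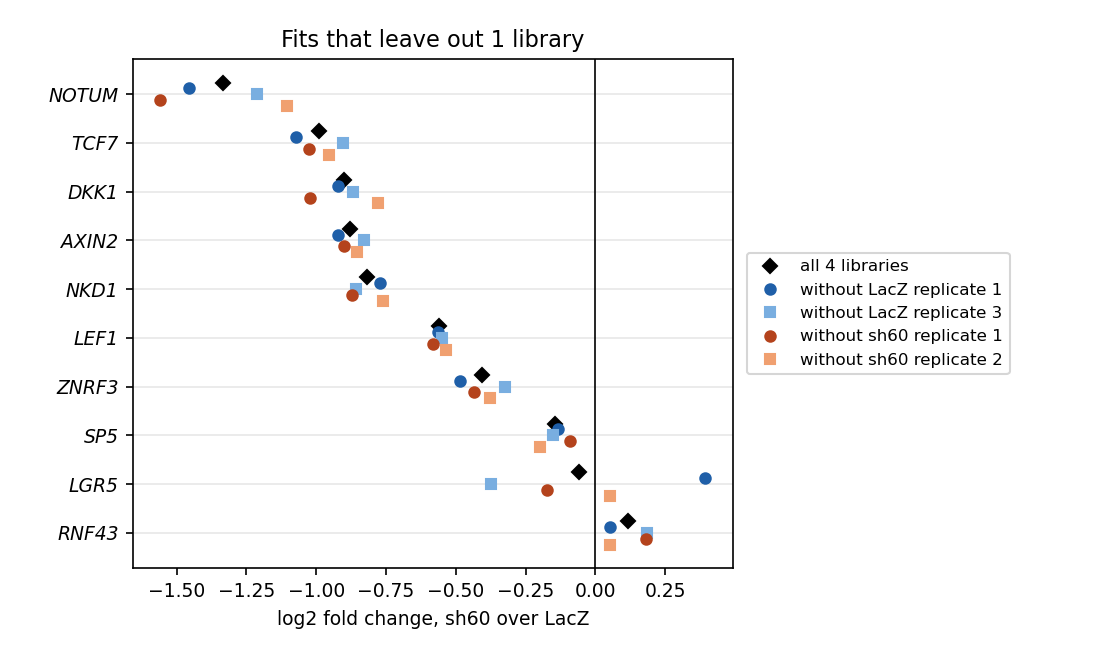
Log2 fold change of sh60 over LacZ for each gene with all 4 libraries (black diamonds) and with each library left out in turn (coloured points). The points of AXIN2, NKD1, TCF7, DKK1 and LEF1 stay close together and below 0, while those of LGR5 lie on both sides of 0, from -0.37 to 0.39.

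Likeness of profile was measured as the distance between log2 CPM values centred over the 4 libraries, among 11256 genes with a mean of at least 5 CPM. The 5 genes nearest to AXIN2 were ARRB1, CACNG7, E2F8, FBN3 and PREX1, at distances of 0.0653 to 0.0946. TCF7 was the 25th nearest gene, DKK1 the 38th and NKD1 the 40th, at distances of 0.126, 0.144 and 0.146. LEF1 was 273rd and ZNRF3 716th, while SP5, RNF43 and LGR5 were far down, at 3174, 7500 and 8426. NOTUM was below the cut of 5 CPM and was not ranked. The profiles share the same 4 libraries and are dominated by the difference between the groups, so this is a description of which genes changed by similar amounts.

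Other genes of the pathway were taken from lists by role, chosen with earlier results of these data known. Of 133 tested genes outside the 10, 54 passed, 36 lower and 18 higher. That number was 31 without LacZ replicate 3. Genes of these lists that are named without a value, and WNT4, WNT9B and DKK4, were added after their values were seen. Over all tested genes 28.8% passed, 13.0% as lower and 15.8% as higher. By list, the shares that passed were 57.7% of further targets, 50% of ligands, 37.5% of receptors and 33.3% of R-spondin and LGR genes. They were 41.2% of secreted inhibitors, 47.4% of nuclear factors, 46.2% of other modulators, 20% of secretion genes and 14.3% around the destruction complex. Of 26 tested further WNT targets, 11 fell, 4 rose and 11 did not pass, with a median log2 fold change of -0.25. TBXT, the mesoderm factor brachyury (listed as T), fell from 95.4 and 114 CPM to 28.1 and 26.3 CPM (log2 fold change -1.95, edgeR adjusted p = 2.82e-09). The homeobox genes CDX1, CDX2 and MSX1 fell by 1.60, 1.82 and 1.14 on the log2 scale. Members that rose were CD44, TNFRSF19, CCND2 and JAG1. Without LacZ replicate 3, 7 of these targets fell, and without either LacZ library 2 rose.

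Among 12 tested WNT ligand genes 5 fell and 1, WNT4, rose, with a median log2 fold change of 0.0095. WNT4 had a low level, 0.689 and 0.499 CPM in LacZ and 1.09 and 1.44 CPM in sh60. Without LacZ replicate 1, 3 rose, and 0 rose without LacZ replicate 3, without sh60 replicate 2 or by DESeq2. WNT3, WNT3A and WNT8A, ligands active in the early embryo, fell by 1.21, 1.83 and 1.45 on the log2 scale. WNT5B, a ligand better known outside the beta-catenin branch, fell by 0.47. WNT9B also fell, at a low level of 1.97 and 1.43 CPM in LacZ and 0.822 and 0.862 CPM in sh60. It was not called by DESeq2, nor without LacZ replicate 1. Of 5 secretion genes 1 fell. This was WLS, which carries lipid-modified ligands to the surface, at 458 and 412 CPM in LacZ and 368 and 372 CPM in sh60 (edgeR adjusted p = 0.0357). Its call was lost without LacZ replicate 1 (adjusted p = 0.553), without LacZ replicate 3 (0.152) and with library totals (0.0607). Conversely, 2 secretion genes fell without sh60 replicate 1 and with upper-quartile scaling, 1 fell and 1 rose without sh60 replicate 2, and 2 fell and 1 rose after removal of trends on GC content and length.

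Of the receptor genes 37.5% passed, beside 28.8% of all tested genes, and they moved in both directions. Of 16 tested receptors and coreceptors 4 fell, 2 rose and 10 did not pass, with a median of 0.047, and 2 fell and 1 rose without LacZ replicate 1 or without LacZ replicate 3. Without sh60 replicate 2 the numbers were 4 lower and 5 higher. FZD10 fell from 32.9 and 38.5 CPM to 16.2 and 18.1 CPM (log2 fold change -1.06, edgeR adjusted p = 2.05e-06), and ROR2, a coreceptor for WNT5A, fell by 0.87 on the log2 scale. RYK, another coreceptor, fell by 0.40, a call lost without LacZ replicate 1 (adjusted p = 0.0779) or without LacZ replicate 3 (0.0575). FZD7 fell and LRP5 rose, and both calls were lost without LacZ replicate 1 and without LacZ replicate 3. FZD2 rose from 44.7 and 40.3 CPM to 64.3 and 79.8 CPM (log2 fold change 0.76, edgeR adjusted p = 4.31e-05). Of 6 R-spondin and further LGR genes 1 fell and 1 rose. RSPO3, an R-spondin, fell from 10.5 and 8.48 CPM to 4.70 and 2.43 CPM, with a gap inside the sh60 pair (log2 fold change -1.45, edgeR adjusted p = 7.12e-05). LGR4, the relative of LGR5 with the same ligands, rose from 71.2 and 66.7 CPM to 95.8 and 87.0 CPM (log2 fold change 0.41, edgeR adjusted p = 0.00271), a call lost without LacZ replicate 3 (adjusted p = 0.149).

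Secreted inhibitors other than DKK1 and NOTUM were mixed as well. Their list also held DKK coreceptors and membrane proteases. Of 17 tested genes 5 fell, 2 rose and 10 did not pass, with a median log2 fold change of -0.056, and 3 fell without LacZ replicate 3, while 1 rose by DESeq2. TRABD2B, a membrane protease that inactivates WNT ligands, fell from 27.4 and 28.4 CPM to 16.5 and 17.0 CPM (edgeR adjusted p = 5.34e-05). IGFBP4, a binding protein of insulin-like growth factors that also inhibits the pathway, fell by 0.52 on the log2 scale, beside SFRP2, FRZB and DKK4. The level of DKK4 was low, 0.594 and 0.832 CPM in LacZ and 0.235 and 0.265 CPM in sh60. DKK3, a member of the DKK family that does not act like DKK1 on the LRP coreceptors, rose from 41.3 and 32.7 CPM to 73.4 and 85.6 CPM (log2 fold change 1.10, edgeR adjusted p = 1.29e-06). SFRP1, which sequesters ligands, rose from 46.1 and 29.4 CPM to 56.6 and 75.5 CPM (edgeR adjusted p = 8.82e-04), with wide gaps inside both pairs and no call by DESeq2 (adjusted p = 0.109).

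Of 21 tested genes around the destruction complex, 2 fell, 1 rose and 18 did not pass. The share that passed, 14.3%, stood beside 28.8% for all tested genes. CTNNB1, which encodes beta-catenin and was looked at after its values were seen, measured 1017 and 1008 CPM in LacZ and 968 and 1008 CPM in sh60, and it did not pass (log2 fold change -0.036, 95% interval -0.19 to 0.12, edgeR adjusted p = 0.768). FBXW11 and BTRC encode the paired ubiquitin ligase adaptors that mark beta-catenin for degradation. FBXW11 rose from 44.6 and 47.0 CPM to 67.3 and 64.5 CPM (log2 fold change 0.53, edgeR adjusted p = 3.62e-04). BTRC fell from 41.2 and 41.7 CPM to 33.5 and 31.9 CPM (log2 fold change -0.34, edgeR adjusted p = 0.0136), which was lost without LacZ replicate 1 (adjusted p = 0.153) or without LacZ replicate 3 (0.194). CSNK1G2, a casein kinase, fell by 0.23, and its call was lost in the same fits (0.358 and 0.389) and with library totals (0.0707). In this list 0 fell and 1 rose without either LacZ library, 3 fell and 2 rose without sh60 replicate 1, and 3 fell and 3 rose without sh60 replicate 2. The last numbers also held once trends on GC content and exon length were taken out, and with library totals 1 fell.

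Of 19 nuclear factors 5 fell, 4 rose and 10 did not pass, with a median log2 fold change of -0.18. Beside TCF7L1 and TCF7L2, the genes that rose were BCL9L and HBP1, and beside TLE3 the genes that fell were PYGO1, PYGO2, TLE4 and EP300. Of the genes that fell, only TLE3 kept its call without LacZ replicate 1 or without LacZ replicate 3. TLE3, a corepressor of TCF factors, fell from 201 and 212 CPM to 137 and 148 CPM (log2 fold change -0.54, edgeR adjusted p = 9.04e-05). BCL9L, a coactivator of beta-catenin, rose by 0.46, and HBP1, a repressor that binds TCF factors, rose by 0.48. Both of these calls were lost without LacZ replicate 3 (adjusted p = 0.0590 and 0.0642). Without LacZ replicate 1, 1 nuclear gene fell and 3 rose, and without LacZ replicate 3, 1 fell and 2 rose. In the other direction, 9 fell and 4 rose both without sh60 replicate 2 and after removal of trends on GC content and length. Of 13 other modulators 3 fell and 3 rose, with a median of 0.0033. DACT1, a Dishevelled-binding protein, fell from 236 and 228 CPM to 158 and 161 CPM (edgeR adjusted p = 6.06e-05), and CXXC5, another Dishevelled-binding inhibitor, fell by 0.58 on the log2 scale. VANGL1 also fell, a call that was lost without LacZ replicate 1 and without LacZ replicate 3. CXXC4, the relative of CXXC5, rose from 4.80 and 4.16 CPM to 8.84 and 8.26 CPM, and PRICKLE2, a planar polarity gene, rose by 0.67. DACT3 also rose, but it was not called by DESeq2, nor without LacZ replicate 3, sh60 replicate 1 or sh60 replicate 2.

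**Figure D4:**
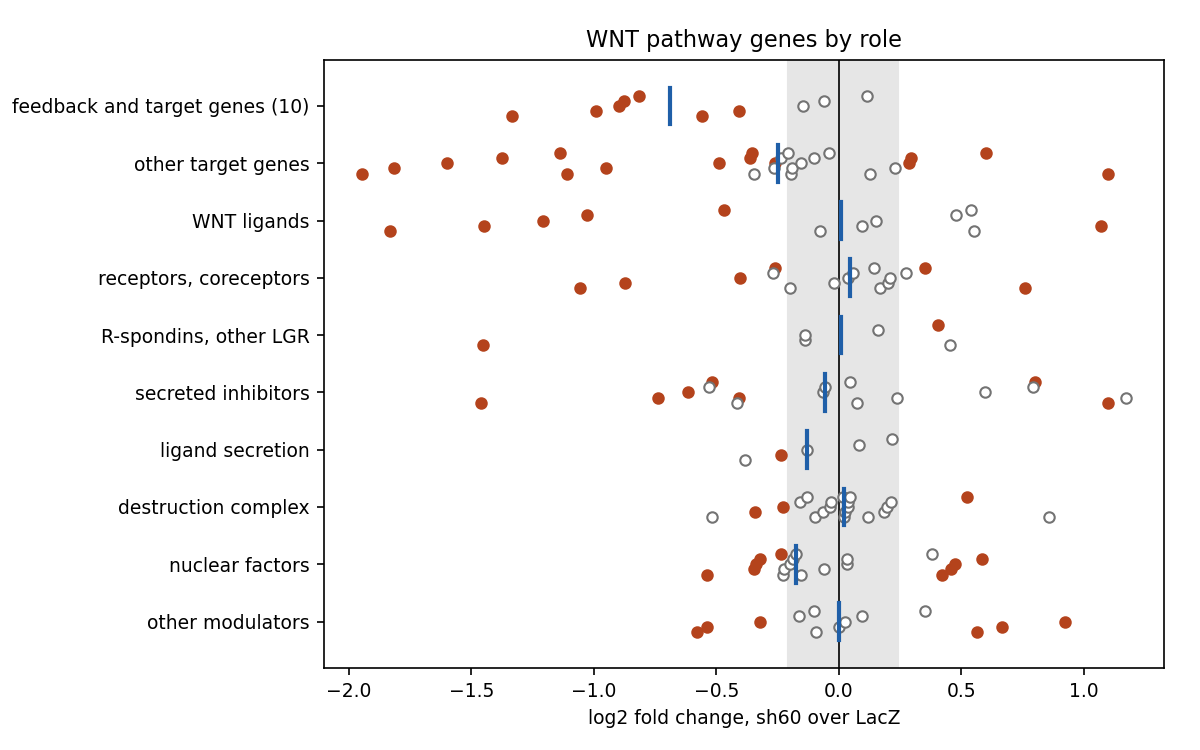
Log2 fold change of sh60 over LacZ for each tested WNT pathway gene, by role, with filled circles for genes past the threshold, open grey circles for the others, blue lines for the list medians and a grey band for the middle 50% of all tested genes. The feedback and target genes have a median of -0.69, while the ligands, receptors and destruction complex have medians of 0.0095, 0.047 and 0.023 with filled circles on both sides of 0.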

How the data were processed

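STAR 2.7.6a placed the single-end reads of a stranded mRNA kit on hg19 (GRCh37), per the submitters' processing notes. The values the authors deposited are raw read counts per gene, made with featureCounts of Subread 2.0.0 at strand setting 2 over exons, per the file headers. Ambiguous reads (several loci or several genes) are left out by the defaults of that command. LEF1 and RNF43 overlap antisense genes, which were counted on the other strand.

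Counts were tested with edgeR 4.0.16 (R 4.3.3) by the quasi-likelihood test with TMM scaling, filterByExpr and the group as the only term. Benjamini-Hochberg adjustment covered 16040 genes, and 0.05 was the threshold. No library repeated another, since replicates differed beyond counting error (chi-square over its degrees of freedom was 5.89 in LacZ and 15.8 in sh60). The script was tested on simulated data that gave all genes and both groups the same spread beyond counting error. There it recovered 80 of 100 changes of 1.5-fold and 99 of 100 changes of 2-fold. Genes with a wider spread were not simulated. The genes and pathway lists were chosen with earlier results of these data known. All 10 genes and BEND3 were named, and for each list the 4 called genes of smallest p, or the 2 most abundant where none was called, and the 5 profiles nearest to AXIN2. Alternatives were other scalings, DESeq2 1.42.0, limma-voom (limma 3.58.1), 2 other filters, leaving out each library, and removing loess trends on exon length and on the GC content of GENCODE transcripts, matched by symbol for 94.2% of tested genes. Promoter sequences are from RefSeq on GRCh38.p14, another build than that of the counts. Protein sequences were not used here.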

Additional observations from a re-analysis of the deposited data

How the results depend on the processing

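Over 12 alternatives, 117 of 120 values of the 10 genes kept their direction and their side of the threshold. The exceptions were ZNRF3 without LacZ replicate 3 (adjusted p = 0.212) and LGR5, whose log2 fold change turned to 0.39 without LacZ replicate 1 and to 0.052 without sh60 replicate 2 and ran from -0.37 to 0.39 over the fits that leave out 1 library. The adjusted p of the 7 genes that fell was at most 0.0260 in every alternative but that one for ZNRF3. With 1 library left out, the number of genes changed ran from 2287 to 5486, of the 10 genes from 6 to 7 and of the other pathway genes from 31 to 67, and the log2 fold change of BEND3 from -0.56 to -0.36. These fits leave an arm with 1 library, which is assumed to vary like the other group, and the cause of the differences was not tested. TBXT has no value with GC trends removed because its older symbol was not matched. The count of NOTUM, at most 164, limits its precision. No paired analysis was possible because the groups share only replicate number 1.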
